A study of Chlamydomonas reinhardtii with 12 samples.

Results

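The quantity described here is the strain difference of the response to oxygen loss in the green alga Chlamydomonas reinhardtii. For each locus the log2 ratio of anoxia over dark aerated cells was taken in amiCYG12, and the same ratio in CC-124 was subtracted from it. The ratios were formed from FPKM (fragments per kilobase of transcript, scaled to the mapped fragments of the library) after adding 1. A locus was represented by its transcript of highest mean FPKM and entered if at least 1 of the 4 groups had 1 FPKM or more. This held for 10737 of the 17741 loci of the deposited table, and 2783 of them carry a gene symbol.

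amiCYG12 is a transformant of CC-124 that expresses an artificial microRNA against CYG12, a gene for a guanylate cyclase, and CC-124 is the wild type. The 4 groups were amiCYG12 after 6 h of dark anoxia in gas-tight flasks, amiCYG12 after 6 h in darkness in stirred open beakers, and both incubations of CC-124. Each group held 2 biological replicates, 8 libraries of poly(A) RNA in all. The standard incubation (light, acetate medium, aerated), with 2 replicates of each strain, lies outside the definition and is used below as a further comparison of the strains. The labels speak of a transformant and do not say whether it is 1 clone; a line with a control construct was not analysed here.

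When oxygen runs out in the dark, Chlamydomonas turns from respiration to fermentation and disposes of surplus electrons partly through hydrogenases, whose genes it switches on. The antenna and photosystem genes serve the light reactions, follow light and the state of the chloroplast, and have no light to use in darkness. Flagella are assembled from many proteins whose genes are known to be raised together when flagella are rebuilt.

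The deposited table gives 1 pooled FPKM value for each group, so the spread between the 2 libraries of a group cannot be printed and the depth of each library is unknown. The strain difference was tested with standard errors recovered from the authors' deposited p-values, adjusted by Benjamini-Hochberg at 0.05 over 10543 loci. The median recovered error of a difference was 0.53 on the log2 scale. The test used the deposited log2 changes, without the added 1. Relative to CC-124, amiCYG12 had less FPKM in total, 519823 against 637144 under anoxia and 515471 against 601731 in the dark aerated groups. Over the 7860 loci with at least 1 FPKM in each of the 4 groups, the median log2 FPKM of amiCYG12 minus that of CC-124 was -0.02 under anoxia and -0.11 dark aerated, which shifts the strain difference by 0.09.

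The targeted gene CYG12 (Cre07.g320750) had 0.429 FPKM under anoxia and 0.353 FPKM dark aerated in amiCYG12, against 2.46 FPKM under anoxia and 3.23 FPKM dark aerated in CC-124. It was thus lower in amiCYG12 in both incubations, and both strain differences were called in the authors' deposited table. Its response to oxygen loss did not differ by the test: the difference was 0.37 with an adjusted p of 0.889.

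The strain difference was called at 67 loci, which is 0.635% of those tested. The change on oxygen loss was higher in amiCYG12 at 33 loci (0.313%) and lower at 34 (0.322%). Without adjustment 1142 loci had a p under 0.05. The smallest difference among the calls was 1.82 in the deposited log2 changes, so a difference of up to about that size mostly went uncalled, and a locus without a call is not shown to respond alike. Over all 10737 loci the median difference was 0.02. A difference of 1 or more was measured at 288 loci (2.68%) and one of -1 or less at 445 loci (4.14%). When the 4 groups were re-centred to a common median, 96 loci were called, 31 higher and 65 lower. With the larger of the 2 errors that can be recovered for a locus, 7 were called, all lower, and of the 19 called loci that were chosen to be named GSF1 was among them.

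Each difference is the strain ratio under anoxia minus the strain ratio in the dark aerated groups, so it can come mainly from either of them or from both. Of the 67 called loci, 22 had a strain ratio called in the authors' deposited table under anoxia alone, and 30 had one called in the dark aerated groups alone. A further 9 had called strain ratios of opposite sign in both, and 6 had called ratios of the same sign in both. The 2 directions divided differently. Among the 34 loci with a lower change in amiCYG12, 17 were assigned to the anoxic groups, 10 to the dark aerated groups and 7 to both with opposite signs. Among the 33 loci with a higher change, 5 were assigned to the anoxic groups, 20 to the dark aerated groups, 2 to both with opposite signs and 6 to both with the same sign. Over all loci the authors called the strain ratio at 15% of those tested under anoxia, at 19.2% in the dark aerated groups and at 10.4% in the standard incubation.

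**Figure D1:**
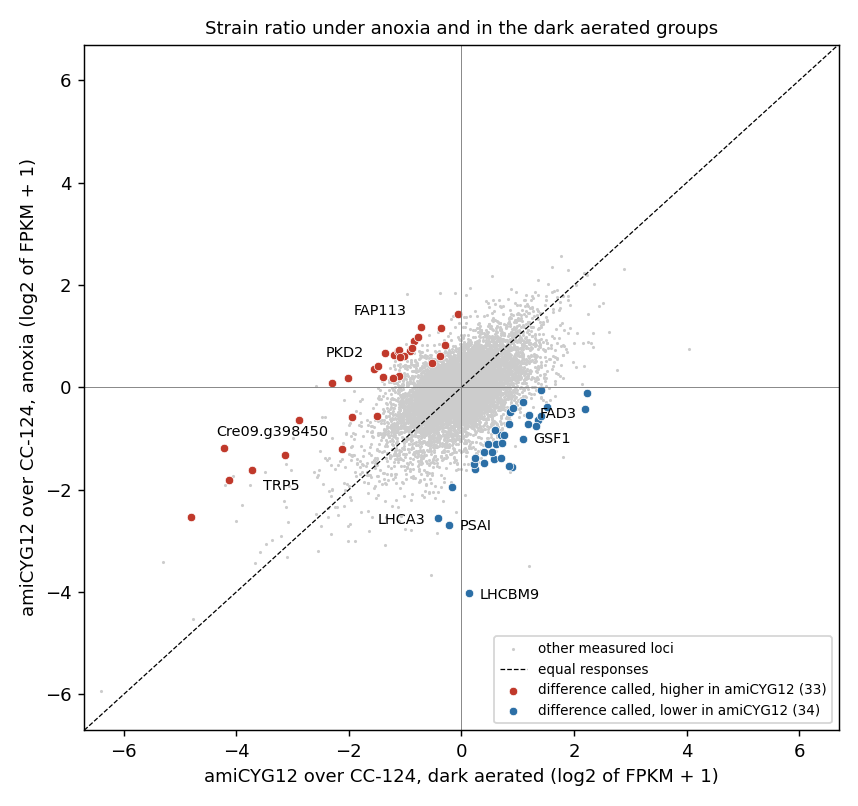
Strain ratio of each measured locus (amiCYG12 over CC-124, log2 of FPKM + 1) in the dark aerated groups on the x axis and under anoxia on the y axis. The dashed line marks equal responses in both strains. The 33 called loci with a higher change in amiCYG12 (red) lie above it and left of 0, the 34 with a lower change (blue) lie below it, and LHCBM9 stands lowest among the called loci, at -4.02 under anoxia.

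The larger set of differences of 1 or more in size, most of them not called, was divided by size. Of the 445 differences of -1 or less, at least 0.667 of the difference came from the anoxic strain ratio at 179 loci and from the dark aerated strain ratio at 152, and 114 were mixed. Of the 288 differences of 1 or more, 39 came from the anoxic ratio, 165 from the dark aerated ratio and 84 were mixed. The anoxic and dark aerated medians of these classes follow from how they were formed, and the standard incubation was not used for it. At the 165 loci that were higher through the dark aerated groups, the median strain ratio was 0.07 under anoxia, -1.17 dark aerated and 0.04 in the standard incubation. At the 152 loci that were lower through the dark aerated groups it was -0.09 under anoxia, 1.24 dark aerated and 0.30 in the standard incubation. At the 179 loci that were lower through the anoxic groups it was -1.34 under anoxia, 0.00 dark aerated and -0.36 in the standard incubation. In the standard incubation 144 of the 179 loci had a ratio below 0 and 33 one above 0. Over all 10737 loci 4823 had a standard ratio above 0, and the median was -0.04.

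At the 165 loci the median of dark aerated over standard was -1.22 in amiCYG12 and -0.04 in CC-124, with the dark aerated values entering both this ratio and the choice of loci. At the 179 loci lower through the anoxic groups, anoxia over dark aerated had a median of -0.81 in amiCYG12 and 0.56 in CC-124. These loci were chosen for a lower ratio in amiCYG12 than in CC-124, so the gap between the medians follows from the choice. Whether their opposite signs go beyond this choice was not tested.

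Most loci with a response called in only one of the strains had no called strain difference. The authors' deposited table called a response at 26% of the loci tested in amiCYG12 and at 15% in CC-124. The call was made in amiCYG12 alone at 1812 loci, and at 48 of these the strain difference was called; 76.9% of the 1812 had a difference under 1 in size. It was made in CC-124 alone at 632 loci, of which 5 had a called strain difference and 86.9% a difference under 1 in size. Responses were called in both strains with the same direction at 945 loci, 8 of them with a called strain difference, and with opposite directions at 6 loci. All 6 loci of the last kind had a higher level under anoxia in CC-124 and a lower one in amiCYG12, and all 6 were called for the strain difference. They were LHCBM9, PSAI, a putative beta-carotene hydroxylase (Cre04.g215050) and 3 loci with no symbol or description (Cre03.g144224, Cre10.g447800 and Cre12.g506750).

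The light reactions held the largest called difference. LHCBM9 (Cre06.g284200, chromosome 6, 5428650 to 5433565 of genome version 5.5) encodes an antenna protein of photosystem II known to accumulate under nutrient stress. It had 1.20 FPKM under anoxia and 6.43 FPKM dark aerated in amiCYG12, against 34.8 FPKM under anoxia and 5.79 FPKM dark aerated in CC-124. The strains thus had nearly the same level in the dark aerated groups and parted under anoxia. The difference of responses was -4.15 on the log2 scale of FPKM plus 1, and -5.00 ± 0.873 (recovered error) in the deposited log2 changes, with an adjusted p of 0.000105. In the standard incubation LHCBM9 was higher in amiCYG12, with 42.3 FPKM against 14.9 FPKM in CC-124.

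PSAI (Cre03.g165100, chromosome 3, 3144971 to 3146515), a small subunit of photosystem I, had 76.9 FPKM under anoxia and 214 FPKM dark aerated in amiCYG12, against 500.1 FPKM under anoxia and 249 FPKM dark aerated in CC-124. LHCA3 (Cre11.g467573, chromosome 11, 348422 to 358381), an antenna protein of photosystem I, had 141 FPKM under anoxia and 339 FPKM dark aerated in amiCYG12, against 836 FPKM under anoxia and 453 FPKM dark aerated in CC-124. In both genes the anoxic amiCYG12 cells had the lowest and the anoxic CC-124 cells the highest of the 4 values. The differences were -2.47 for PSAI and -2.14 for LHCA3, with adjusted p-values of 0.00459 and 0.0137, and both were assigned to the anoxic groups.

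**Figure D2:**
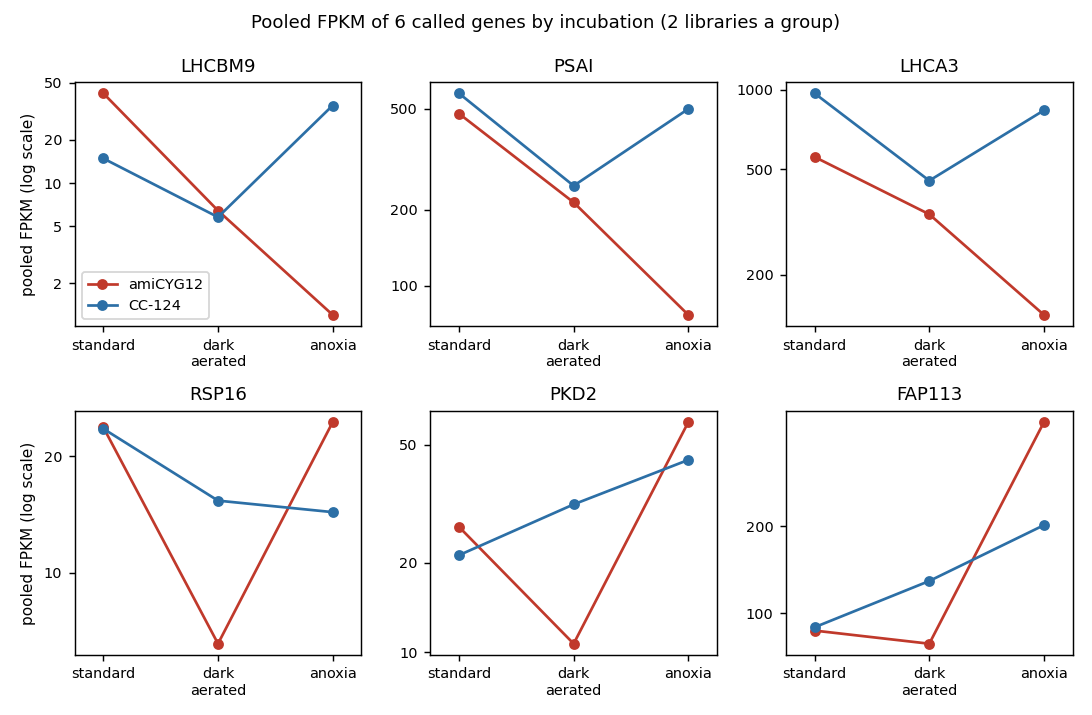
Pooled FPKM (log axis) of LHCBM9, PSAI, LHCA3, RSP16, PKD2 and FAP113 in the standard, dark aerated and anoxic incubations, amiCYG12 in red and CC-124 in blue; each point pools 2 libraries, so there are no error bars. The strains part under anoxia in the upper row. In the lower row amiCYG12 lies below CC-124 in the dark aerated groups and above it under anoxia.

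The antenna list held 21 measured members of 25 in the table. By the test, 2 of the 21 had a lower change in amiCYG12 and 0 a higher one, and 12 had a difference of -1 or less. The list's median difference was -1.28, beside 0.02 over all loci. Its median strain ratio was -1.90 under anoxia, -0.89 dark aerated and -1.18 in the standard incubation. By the calls of the authors' deposited table, 19 of the 21 were lower in amiCYG12 under anoxia (9.23% of all loci tested were), 10 in the dark aerated groups (10.9% were) and 15 in the standard incubation (4.98% were). Many antenna genes were thus lower in amiCYG12 with oxygen too.

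Subgroups of the antenna, formed after their values had been seen, behaved differently. The 9 LHCA genes, whose products bind to photosystem I, had differences of -2.14 to -1.12. Their median change on oxygen loss was -1.26 in amiCYG12 and 0.19 in CC-124. By the calls of the authors' deposited table, 8 of the 9 fell in amiCYG12 (12.9% of all loci tested did), and 0 of the 9 fell in CC-124 (8.02% did). The minor antenna genes CP29 and CP26, which link the trimers to photosystem II, had differences of -1.48 and -1.47. LHCB7, the other measured gene of this subgroup, had a difference of -0.02. The 9 LHCBM genes, which form the trimers, had a median difference of -0.24, and LHCBM9 alone among them was at -1 or less. The LHCBM strain ratio was large in every incubation, with medians of -1.65 under anoxia, -1.26 dark aerated and -1.42 in the standard incubation. LHCBM1, the most abundant, had 2139 FPKM under anoxia and 1937 FPKM dark aerated in amiCYG12, against 7099 FPKM under anoxia and 5452 FPKM dark aerated in CC-124, a difference of -0.24. Several LHCBM genes are near-identical in sequence, and how their reads were shared out is not stated in the sources used here.

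The next list held photosystem subunits and the electron carriers between them. Of 28 measured members of 30 in the table, 1 was called lower and 0 higher, 8 had a difference of -1 or less, and the median was -0.62. The Rieske protein gene PETC had 105 FPKM under anoxia and 162 FPKM dark aerated in amiCYG12, against 382 FPKM under anoxia and 185 FPKM dark aerated in CC-124. Its level under anoxia was below the dark aerated one in amiCYG12 and above it in CC-124, and its difference of -1.66 did not pass the test (adjusted p 0.095). PETO, a phosphoprotein of the cytochrome complex, had a difference of -1.60, and FNR1, the ferredoxin-NADP reductase, one of -1.37; neither was called. The plastocyanin gene PCY1 had a difference of 0.32, and the ATP synthase gene ATPD one of 0.48.

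**Figure D3:**
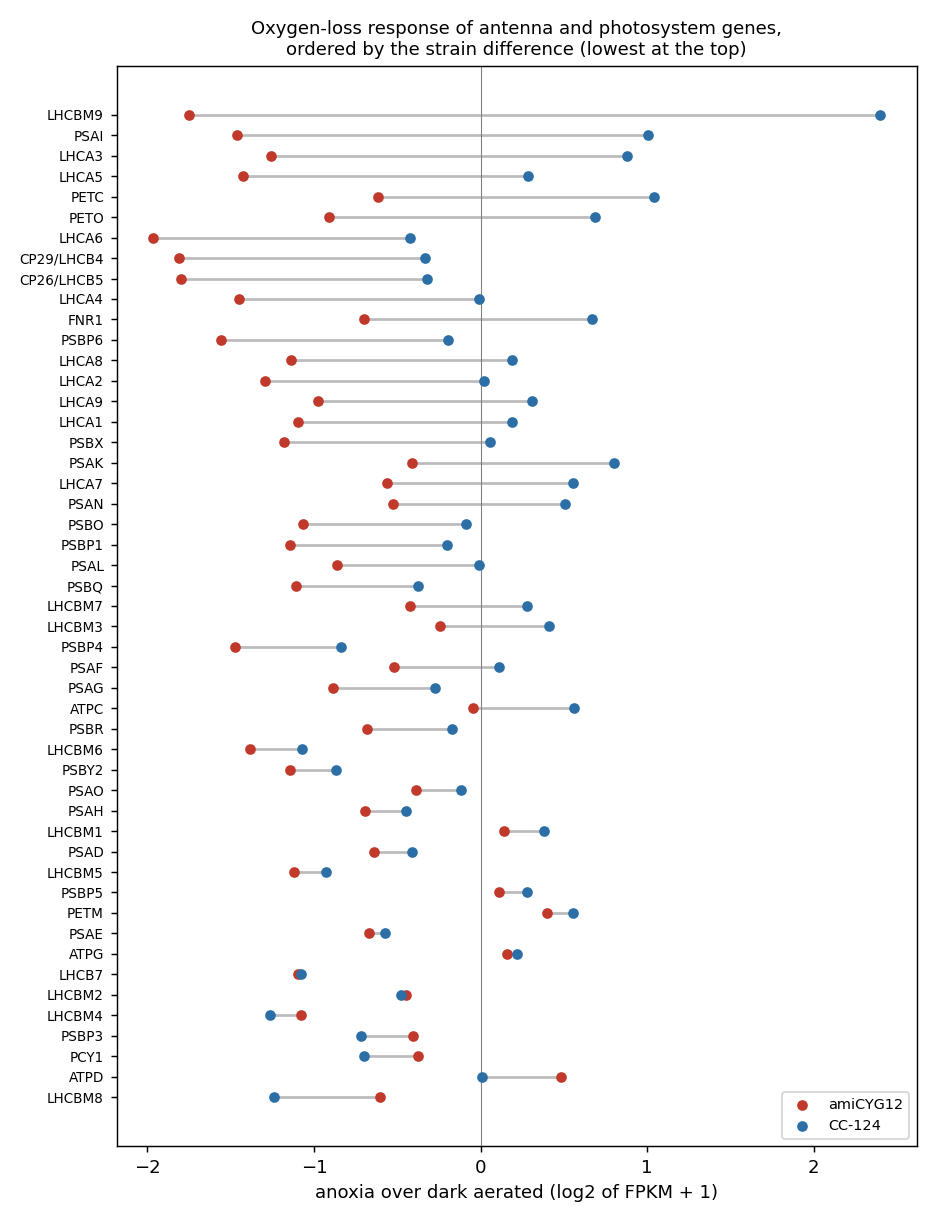
Oxygen-loss response (anoxia over dark aerated, log2 of FPKM + 1) of 49 antenna and photosystem genes in amiCYG12 (red) and CC-124 (blue), ordered by the strain difference with the lowest at the top. The longest bars belong to LHCBM9, PSAI and LHCA3; all 9 LHCA genes have the amiCYG12 point to the left, and LHCBM2, LHCBM4, PSBP3, PCY1, ATPD and LHCBM8 at the foot have it to the right.

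Chlorophyll synthesis and plastid translation lay on the same side. In tetrapyrrole synthesis 0 of 30 measured members were called, 10 had a difference of -1 or less and 0 one of 1 or more, with a median of -0.62. GSA1, which makes the precursor aminolevulinate, had 13.4 FPKM under anoxia and 65.2 FPKM dark aerated in amiCYG12, against 54.1 FPKM under anoxia and 84.1 FPKM dark aerated in CC-124, a difference of -1.58. POR1, the light-dependent protochlorophyllide reductase, had 7.97 FPKM under anoxia and 23.3 FPKM dark aerated in amiCYG12, against 71.0 FPKM under anoxia and 89.4 FPKM dark aerated in CC-124. It was lower in amiCYG12 in the standard incubation too, with a strain ratio of -2.80. The copper-responsive pair CPX1 and CRD1 rose under anoxia in both strains in the authors' deposited table. CPX1 had a strain difference of -1.09 and CRD1 one of -0.03.

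Of the 35 plastid ribosomal protein genes 0 were called, 33 had a difference below 0 and 10 one of -1 or less, and the median was -0.74. Their median strain ratio was -0.59 under anoxia, 0.15 dark aerated and -0.35 in the standard incubation. PRPS5 had 107 FPKM under anoxia and 207 FPKM dark aerated in amiCYG12, against 231 FPKM under anoxia and 131 FPKM dark aerated in CC-124. Its difference of -1.76 missed the threshold with an adjusted p of 0.0612. The cytosolic ribosome, with 70 members, had a median difference of -0.04, and the mitochondrial ribosome, with 36, one of 0.12. In the cytosolic list 5 members were at -1 or less (4.14% of all loci were), 0 were at 1 or more and 0 were called. Its lowest member RPS26 had a difference of -1.86 with an adjusted p of 0.0517. MRPS29/CPL4, a mitochondrial ribosomal protein gene, was called, with a difference of -2.39: it had 4.13 FPKM under anoxia and 3.92 FPKM dark aerated in amiCYG12, against 13.9 FPKM under anoxia and 1.73 FPKM dark aerated in CC-124. The Calvin cycle list had a median of -0.54 over 19 members, 4 of them at -1 or less and 0 called. PGK1, a phosphoglycerate kinase, was lowest at -1.90.

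Chaperonins of the chloroplast, among them CPN60A, CPN60B2 and CPN20, fold newly imported proteins. CPN60A had 31.5 FPKM under anoxia and 73.3 FPKM dark aerated in amiCYG12, against 102 FPKM under anoxia and 39.7 FPKM dark aerated in CC-124. Its difference of -2.53 had an adjusted p of 0.0655. CPN60B2 and CPN20, further subunits, had differences of -1.75 and -1.36, and neither was called (adjusted p 0.0652 and 0.194). Among the 66 measured heat shock and chaperonin genes, which are not limited to the chloroplast, 2 were called, both with a lower change in amiCYG12. CPN60C had 5.19 FPKM under anoxia and 52.2 FPKM dark aerated in amiCYG12, against 8.04 FPKM under anoxia and 22.1 FPKM dark aerated in CC-124, and was assigned to the dark aerated groups. DNJ14, a J protein gene, was assigned to the anoxic groups with a difference of -1.74.

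The 5 chloroplast lists together (antenna, photosystem, tetrapyrrole, plastid ribosome, Calvin cycle) held 133 measured loci. A difference of -1 or less was found at 44 of them, 33.1%, beside 4.14% over all loci, and one of 1 or more at 0. These 44 loci make up 9.89% of all differences of -1 or less and 25.7% of those with a symbol. By size, 38 of the 44 came from the anoxic strain ratio, 2 from the dark aerated ratio and 4 were mixed. These 5 lists had the lowest median differences of all lists with at least 8 measured members. The shares of the pool thus follow partly from the choice of lists. Starch genes (21 measured) and genes of the carbon concentrating mechanism (33 measured) were not in the pool. Their median differences were 0.11 and -0.24.

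Flagella genes had differences above 0 for the most part. The list of flagellar associated proteins and that of axonemal motors, spokes, intraflagellar transport and tubulin together held 299 measured loci. Of these 7 were called with a higher change in amiCYG12 and 0 with a lower one, and 258 had a difference above 0. A difference of 1 or more was found at 91, 30.4% of the lists beside 2.68% over all loci, which is 31.6% of all such differences and 68.9% of those with a symbol. The median difference was 0.68. Anoxia over dark aerated had a median of 0.87 in amiCYG12 and 0.18 in CC-124, and by the calls of the authors' deposited table, 178 of the 299 rose in amiCYG12 (13.1% of all loci tested did) and 11 in CC-124 (6.97% did).

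The flagella difference came mainly from the dark aerated groups. The median strain ratio was 0.13 under anoxia, -0.53 dark aerated and 0.29 in the standard incubation. In the dark aerated groups 81 of the 299 were lower in amiCYG12 and 9 higher in the authors' deposited table, beside 10.9% and 8.25% of all loci tested. Under anoxia 6 were lower and 19 higher, beside 9.23% and 5.75% of all loci tested, so 19 of 299 is near the share of all loci. In the standard incubation 5 were lower and 35 higher, beside 4.98% and 5.43% of all loci tested. By size 52 of the 91 differences of 1 or more came from the dark aerated ratio, 4 from the anoxic ratio and 35 were mixed. The dark aerated shift over all loci, -0.11, is part of the flagella median of -0.53. In RNA of whole cultures, fewer cells with these transcripts and less transcript in each cell cannot be told apart.

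Of the 7 called flagella genes, 1 was among the radial spoke genes and 1 among those of the outer dynein arm and its docking. RSP16 (Cre12.g511050, chromosome 12, 1899965 to 1902850), a radial spoke protein, had 24.5 FPKM under anoxia and 6.57 FPKM dark aerated in amiCYG12, against 14.4 FPKM under anoxia and 15.4 FPKM dark aerated in CC-124. In the standard incubation the strains had 23.7 FPKM in amiCYG12 and 23.5 FPKM in CC-124. The dark aerated amiCYG12 cells thus had the lowest of the 6 values, and the difference was 1.84 with an adjusted p of 0.0241. ODA14 (Cre14.g617550), a part of the docking complex that anchors outer dynein arms, had 18.9 FPKM under anoxia and 6.36 FPKM dark aerated in amiCYG12, against 12.1 FPKM under anoxia and 14.6 FPKM dark aerated in CC-124. The locus FAP32 (Cre05.g241637), described in the table as intraflagellar transport protein 46, had 31.5 FPKM under anoxia and 6.75 FPKM dark aerated in amiCYG12, against 24.2 FPKM under anoxia and 21.6 FPKM dark aerated in CC-124. The differences were 1.68 for ODA14 and 1.91 for FAP32, with adjusted p-values of 0.0447 and 0.0326. After re-centring ODA14 missed the threshold (adjusted p 0.0515), as did FAP265 (0.0563).

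FAP113 (Cre07.g321400) was the most abundant of the called flagella genes and departed from this form. It had 458 FPKM under anoxia and 78.6 FPKM dark aerated in amiCYG12, against 202 FPKM under anoxia and 129 FPKM dark aerated in CC-124. Its level under anoxia was the highest of all 6 groups in amiCYG12, and the standard incubation had 87.3 FPKM in amiCYG12 and 89.6 FPKM in CC-124. By the authors' strain calls FAP113 (difference 1.89) and FAP265 (1.76) were assigned to the anoxic groups. The other called members of these lists, FAP138 and FAP276 among them, were assigned to the dark aerated groups. This assignment rests on which ratio passed the authors' threshold. The strain ratios under anoxia and dark aerated were 1.18 and -0.71 for FAP113 and 0.92 and -0.85 for FAP265. They were 0.77 and -0.87 for FAP138 and 0.71 and -0.91 for FAP276. By size FAP113, FAP265, FAP138 and FAP276 were all mixed. PKD2 (Cre17.g715300), a polycystin channel of the flagellar membrane that is on neither list, had 59.6 FPKM under anoxia and 10.7 FPKM dark aerated in amiCYG12, against 44.5 FPKM under anoxia and 31.5 FPKM dark aerated in CC-124, with a difference of 1.89 and an adjusted p of 0.0347. FAP211 was the clearest exception with a difference of -3.29 on the scale of FPKM plus 1, but its deposited difference was -1.56 and was not called.

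Within flagella genes the difference varied with structure and length. Subgroups formed after their values had been seen had a median difference of 1.19 for 13 genes of the outer dynein arm and its docking, 1.01 for 18 of intraflagellar transport, 0.90 for 15 of the radial spokes, 0.66 for 4 tubulins and 0.49 for 8 of the BBSome, which carries membrane proteins out of flagella. The 11 dynein heavy chain genes, which encode the motor subunits themselves, had a median of 0.06 and a range of -0.39 to 0.35. Heavy chain genes are among the longest of the genome. When all measured loci were divided by genomic length into 5 classes of equal size, the median flagella difference was 1.08 in the shortest class (64 genes, up to 2678 bases), then 0.89, 0.73 and 0.41, and 0.24 in the longest class (77 genes, 7286 bases or more). The share with a difference of 1 or more was 56.3% in the shortest class and 5.19% in the longest. All other loci had medians between -0.02 and 0.07 in the 5 classes, so the whole table showed no such course with length. The longer flagella genes were also lower in level, with a median mean FPKM of 2.62 in the longest class and 16.1 in the shortest, and the added 1 makes ratios of low values smaller. In the deposited log2 changes, which have no added 1, the flagella medians still ran from 1.27 in the shortest class to 0.42 in the longest. The part of length and level in this course was not tested.

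**Figure D4:**
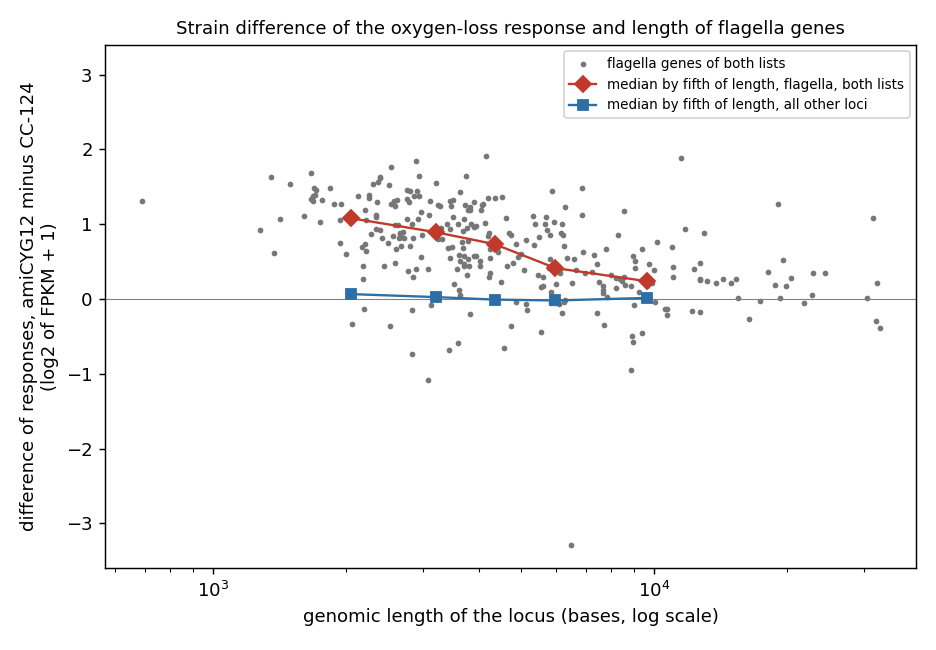
Difference of the oxygen-loss responses (amiCYG12 minus CC-124, log2 of FPKM + 1) of 299 flagella genes against the genomic length of the locus on a log axis. Red diamonds give the flagella median and blue squares the median of all other loci in each of 5 classes of length, placed at the median length of the class. The flagella medians go from 1.08 to 0.24 with length, and those of other loci stay between -0.02 and 0.07.

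Of the genes of hydrogen production, 0 of 5 passed the test and 4 had a difference above 0. HYDA1 (Cre03.g199800), a hydrogenase, had 119.8 FPKM under anoxia and 7.48 FPKM dark aerated in amiCYG12, against 238 FPKM under anoxia and 66.2 FPKM dark aerated in CC-124. amiCYG12 was lower in both incubations and further below CC-124 with oxygen than without it. The difference was 2.01 with an adjusted p of 0.254; its recovered error of 0.859 is an upper bound. The second hydrogenase gene HYDA2 had a difference of 0.96 and the maturases HYDEF and HYDG had 1.10 and 1.23, while HYD3 had -0.15. By the calls of the authors' deposited table, 4 of these 5 genes were lower in amiCYG12 in the dark aerated groups (10.9% of all loci tested were) and 2 under anoxia (9.23% were). The median strain ratio of the 5 was -0.23 under anoxia, -1.47 dark aerated and 0.43 in the standard incubation. That standard median is the value of HYD3. In the standard incubation HYDA1 and HYDA2 had ratios of -0.72 and -0.32, neither called. HYDEF and HYDG had 0.56 and 0.96, both called higher in amiCYG12.

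Fermentation genes dispose of electrons and carbon when respiration stops. Of 26 measured members 0 were called, 0 had a difference of 1 or more and 7 had one of -1 or less (4.14% of all loci did), with a median of -0.49. The difference was below 0 at 17 members, with a lowest value of -2.33, and above 0 at 9. PFL1, the pyruvate formate lyase, was among those above 0, with a difference of 0.47. The 4 hybrid-cluster protein genes were lower in amiCYG12 under anoxia (9.23% of all loci tested were) and dark aerated (10.9% were) in the authors' deposited table, and their median difference was -0.15 with 1 FPKM added and 1.08 with 0.1 FPKM added, so it has no settled sign. FDX5, the anoxic ferredoxin, had 1684 FPKM under anoxia and 2.84 FPKM dark aerated in amiCYG12, against 2691 FPKM under anoxia and 2.57 FPKM dark aerated in CC-124, a difference of -0.78 that was not called. Of 28 proteasome genes 22 fell in amiCYG12 (12.9% of all loci tested did) and 25 in CC-124 (8.02% did) by the calls of the authors' deposited table, and their median difference was 0.03. Nucleotide cyclases, the family of CYG12 itself, had a median of 0.30 over 35 measured members of 54 in the table, with 0 called and a range of -0.63 to 0.73.

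In DNA replication genes the authors called more strain ratios in the dark aerated groups than under anoxia. Many of these genes were under 1 FPKM under anoxia, where the added 1 makes ratios smaller. The calls and ratios therefore do not show in which incubation the strains differed more. Of 44 measured members (57 are in the table) 0 were called. The median difference was -0.37 with 1 FPKM added and 0.07 in the deposited log2 changes, so it has no settled sign. By the calls of the authors' deposited table, 21 of the 44 were higher in amiCYG12 in the dark aerated groups (8.25% of all loci tested were), 10 under anoxia (5.75% were) and 3 in the standard incubation (5.43% were, so that 3 of 44 is near the share of all loci). The 8 measured genes that license replication origins (MCM, ORC and CDC6), grouped after their values had been seen, had a median strain ratio of 1.09 dark aerated, 0.29 under anoxia and 0.15 in the standard incubation. All 8 were called higher in the dark aerated groups in the authors' deposited table, but the list has 13 genes in the table. MCM2, MCM3, MCM4, MCM6, CDC6 and ORC6 reached the minimum of 1 FPKM only in dark aerated amiCYG12. Their high level there thus follows partly from the minimum. The same holds for CDC45, TOP2, PRI2, POLA2, RFA3/RPA70B, RFC5, POLA4 and POLD2 of the larger list. The count of 21 of the 44 called higher in the dark aerated groups thus follows partly from the minimum too. MCM3, a subunit of the replicative helicase, had 0.99 FPKM under anoxia and 6.14 FPKM dark aerated in amiCYG12, against 0.10 FPKM under anoxia and 0.79 FPKM dark aerated in CC-124. Its difference was -1.14 with 1 FPKM added and 0.37 in the deposited log2 changes. Over the 8 genes the median difference was -0.79 with 1 FPKM added and -0.69 in the deposited log2 changes.

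Further called genes with symbols included GSF1, LCIB, FAD3 and NGS1. GSF1, the ferredoxin-dependent glutamate synthase, had 15.9 FPKM under anoxia and 45.4 FPKM dark aerated in amiCYG12, against 33.0 FPKM under anoxia and 20.8 FPKM dark aerated in CC-124. The strain order turned round between the incubations, with strain ratios of -1.01 under anoxia and 1.09 dark aerated, and the difference was -2.10 with an adjusted p of 0.0168. LCIB, a protein of the carbon concentrating mechanism, had 16.5 FPKM under anoxia and 123 FPKM dark aerated in amiCYG12, against 45.3 FPKM under anoxia and 82.3 FPKM dark aerated in CC-124; its difference of -1.98 was assigned to the anoxic groups. The desaturase gene FAD3 had 46.6 FPKM under anoxia and 50.6 FPKM dark aerated in amiCYG12, against 76.8 FPKM under anoxia and 21.6 FPKM dark aerated in CC-124. Its difference of -1.90 was assigned to the dark aerated groups, where the knockdown line already had a level that CC-124 passed only under anoxia. NGS1, an N-acetylglutamate synthase of arginine synthesis, was called as well, with a difference of -2.09. Outside the rule for named genes, the locus of the beta-carotene hydroxylase had 3.56 FPKM under anoxia and 6.94 FPKM dark aerated in amiCYG12, against 11.8 FPKM under anoxia and 5.01 FPKM dark aerated in CC-124.

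Of the 67 called loci 28 carry a symbol, and the largest difference above 0 was at a locus without one. Cre09.g398450 (chromosome 9, 1432719 to 1434759) had 55.7 FPKM under anoxia and 6.39 FPKM dark aerated in amiCYG12, against 128 FPKM under anoxia and 137 FPKM dark aerated in CC-124. In the standard incubation amiCYG12 had 20.0 FPKM and CC-124 134 FPKM, so that the CC-124 levels lay close together and the amiCYG12 levels apart. The difference was 3.03 with an adjusted p of 0.0347. Its neighbours showed the same form. TRP5, described as a transient receptor potential ion channel, had 5.70 FPKM under anoxia and 0.362 FPKM dark aerated in amiCYG12, against 19.5 FPKM under anoxia and 16.9 FPKM dark aerated in CC-124. Cre09.g398250 and Cre09.g398500 had differences of 2.31 and 2.30, the first called and the second with an adjusted p of 0.0558. These 4 loci lie within 1429073 to 1462368 of chromosome 9, a span with 6 loci in the table and 5 measured. All 4 were called lower in amiCYG12 in all 3 incubations in the authors' deposited table, with dark aerated strain ratios of -4.22 to -3.71. The remaining measured locus of the span, Cre09.g398300, had a difference of -0.69 and no call. The neighbourhood was looked at after its values had been seen, and it is not stated whether reads of adjoining loci were counted apart.

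Cre16.g657200 had 244 FPKM under anoxia and 1.42 FPKM dark aerated in amiCYG12, against 230 FPKM under anoxia and 10.9 FPKM dark aerated in CC-124. The anoxic levels of the strains lay close together and the dark aerated ones apart, and the difference was 2.38. On the other side, Cre06.g293582 had 13.9 FPKM under anoxia and 62.6 FPKM dark aerated in amiCYG12, against 18.9 FPKM under anoxia and 12.8 FPKM dark aerated in CC-124. Cre06.g249750 had 5.40 FPKM under anoxia and 25.9 FPKM dark aerated in amiCYG12, against 5.88 FPKM under anoxia and 4.72 FPKM dark aerated in CC-124. The differences of -2.62 and -2.34 were both assigned to the dark aerated groups. In the standard incubation Cre06.g293582 had 50.1 FPKM in amiCYG12 and 29.4 FPKM in CC-124, and Cre06.g249750 had 17.3 FPKM in amiCYG12 and 12.7 FPKM in CC-124. At both loci the dark aerated value was above the standard one in amiCYG12 and below it in CC-124.

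Across the lists with at least 8 measured members, those at the low end of the difference were antenna, plastid ribosome, tetrapyrrole, photosystem and Calvin cycle genes, and those at the high end were the 2 flagella lists. Both ends differ in form. In the antenna, photosystem, plastid ribosome and Calvin cycle lists the standard and dark aerated ratios both stood above the anoxic one. The tetrapyrrole list differed, with a standard median of -1.10 close to the anoxic -1.12 and a dark aerated one of -0.31. In the flagella lists the standard and anoxic ratios both stood above the dark aerated one.

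**Figure D5:**
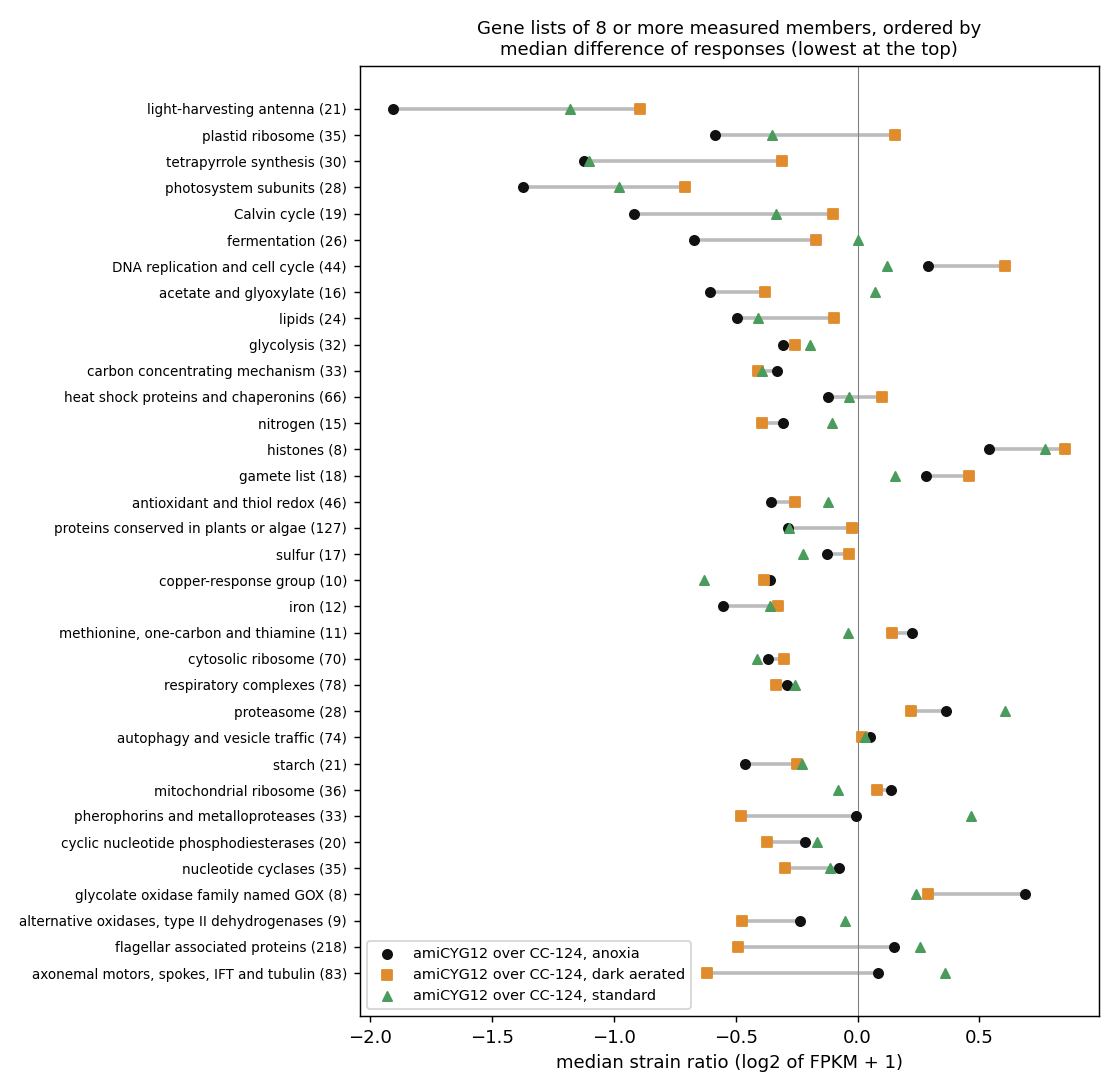
Median strain ratio (amiCYG12 over CC-124, log2 of FPKM + 1) of gene lists with at least 8 measured members, under anoxia (black circles), dark aerated (orange squares) and in the standard incubation (green triangles), with the number of measured members in parentheses. Lists run from the lowest median difference at the top (antenna, -1.28) to the highest at the bottom (axonemal motors, spokes, intraflagellar transport and tubulin, 0.70), and grey bars join the 2 ratios that make up the difference.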

How the data were processed

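Poly(A) RNA of 12 libraries (6 groups of 2) was sequenced with strand information, per the labels' protocols. CASAVA 1.8.2, Bowtie2 2.0.5, TopHat2 2.0.6, SAMtools 1.2 and Cufflinks 2.1.1 are named in the submitters' processing notes. The authors deposited 1 pooled FPKM value for each group and transcript, on genome version 5.5 and Phytozome release 11 per the file headers. They also deposited, for 9 comparisons of groups from Cuffdiff per the file headers, log2 fold changes with p-values, q-values and calls. Depth per library is unknown, and no value per library or replicate error can be given. The labels call the replicates biological and do not say that they are separate cultures.

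The standard error of each deposited log2 change was recovered from its deposited p-value (normal quantile, p up to 0.95). Either both responses or both strain comparisons give an error for the strain difference. The larger was used where neither held the smallest deposited p-value (5e-05), the one without it where 1 did, and the smaller where both did. At that p-value the error is an upper bound, which applied to 373 of 10543 tested loci and 27 of the 67 calls. The difference was compared with a normal distribution, two-sided, with Benjamini-Hochberg adjustment at 0.05. These errors describe the authors' p-values. A further 194 loci had no usable p-value, and 3 were left out because the authors' status marked a failed estimate or too many fragments.

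A called locus was assigned to the anoxic or dark aerated groups by the authors' strain calls, or by size where at least 0.667 of the difference came from one strain ratio. Medians and ratios in the text are own values on log2 of FPKM plus 1. Gene lists (40, with 12 subgroups) were matched on the table's symbols, which the files pair with locus IDs. Of the measured loci 10736 have a locus tag in the RefSeq annotation. Members and lists were chosen with earlier results of these data known. Named genes were called loci with a symbol and a mean of 10 FPKM: the 8 highest and 8 lowest, up to 6 assigned to either oxygen state, and 4 with opposite strain calls. Up to 3 called members of each list with 2 or more calls were added whatever their FPKM, which named DNJ14. Also named were 2 called loci without a symbol in each direction (mean of 10 FPKM), CYG12 and the hydrogenases, which gave 25 loci. Other genes in the text illustrate their lists and were chosen after their values were seen. Software was Python 3.11.15, pandas 2.3.3, numpy 2.4.6, scipy 1.17.1 and matplotlib 3.10.9.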

Additional observations from a re-analysis of the deposited data

Results flagged for a closer look

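The 19 named loci below drew attention because the test of the difference itself found unequal responses to oxygen loss in the strains, amiCYG12 minus CC-124 on the log2 scale of FPKM plus 1. Lower changes in amiCYG12 were found for LHCBM9 (-4.15), Cre06.g293582 (-2.62), PSAI (-2.47), Cre06.g249750 (-2.34), LHCA3 (-2.14), GSF1 (-2.10), LCIB (-1.98), FAD3 (-1.90), CPN60C (-1.75) and DNJ14 (-1.74). Higher changes were found for ODA14 (1.68), FAP265 (1.76), RSP16 (1.84), FAP113 (1.89), PKD2 (1.89), FAP32 (1.91), TRP5 (2.10), Cre16.g657200 (2.38) and Cre09.g398450 (3.03). No group has separate library values, so samples that stand apart within a group could not be looked for.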

How the results depend on the processing

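No paired analysis was possible because the table holds 1 pooled value per group, so the letters a and b of the labels have no column; leaving out a replicate was not possible for the same reason. The choice of error mattered most. With the larger of the 2 recovered errors at every locus, calls numbered 7 in all, 0 higher and 7 lower, 1 assigned to the anoxic and 1 to the dark aerated groups, and 18 of the 19 named calls missed the threshold, GSF1 being the exception. At the smallest p-value the larger error is an upper bound by construction. With the smaller error there were 74 calls, which kept all 67. Re-centring on a common median gave 65 lower calls and 40 assigned to the anoxic groups, with 65 of the 67 shared; ODA14 and FAP265 missed the threshold with adjusted p-values of 0.0515 and 0.0563. A size of at least 2 with no error gave 36 loci, 14 higher and 22 lower, 7 anoxic and 10 dark aerated, and 19 of them were among the 67. The cause was not tested. No filter, a minimum of 10 FPKM and every transcript as its own feature gave 61, 73 and 63 calls, with 60, 35 and 63 shared. Assigned by size, 15 calls came from the anoxic and 25 from the dark aerated groups, and 27 were mixed. With 10 FPKM added, 14 of the 25 named differences moved by more than their recovered error and none changed sign. List medians changed sign under 1 or more alternatives in 9 lists, among them the cyclases (-0.63 with a minimum of 10 FPKM, which left 1 of the 35, CYA14). The antenna median was -0.70 without a filter, and the medians of the 2 flagella lists were 0.26 and 0.36 with 10 FPKM added.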
